A study of Phaseolus vulgaris with 18 samples.

Results

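The pair described here consists of a gene annotated as DXR, Phvul.010G023000, and a gene annotated as the terpene synthase TPS-CIN, Phvul.005G135000. They are 2 of the 27420 genes in the deposited expression table of the common bean, Phaseolus vulgaris, and were chosen by their levels in that table, in TPM (a gene's share of the transcripts in a library, corrected for length): both are isoprenoid genes that stood near 0 in grain and high in the oldest pods. Because those levels chose them, every value of the pair below is a description without a test. Both passed the filter on low values, at least 1 TPM in at least 3 libraries, and they did so through their pod libraries.

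The study sequenced RNA from grain and from pod of a bean labelled 4004 at 10, 15 and 20 DAF, taken to mean days after flowering. Each of the 6 combinations of tissue and stage had 3 libraries, made from total RNA extracted with TRIzol and a SMARTER mRNA library kit. No treatment, mutation or second bean line is named for any group. Nothing in the labels ties a library to its own plant, so the errors and p-values cover the spread between libraries, which may be technical.

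Isoprenoids in plants are built from isopentenyl diphosphate and its isomer, which come from the mevalonate pathway in the cytosol and the MEP (methylerythritol phosphate) pathway in plastids. DXR, deoxyxylulose phosphate reductoisomerase, makes methylerythritol phosphate from the product of deoxyxylulose phosphate synthase (DXS) and is the step after which the MEP pathway is named. Plastids use the products for carotenoids, the phytol tail of chlorophyll, tocopherols, gibberellins, abscisic acid and monoterpenes. Terpene synthases convert prenyl diphosphates into volatile or defensive terpenes, and the Arabidopsis enzyme whose name Phvul.005G135000 carries makes the monoterpene cineole. A name taken from an Arabidopsis match does not establish the product of the bean enzyme.

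The libraries were read first for labels and scale. The 8 cupin storage protein genes of the seed storage list, which are typical of seeds, summed to 15.2 to 72.6 TPM in the 9 pod libraries, 157 to 2274 TPM in grain at 10 DAF and 82540 to 135300 TPM in grain at 15 and 20 DAF. These levels can be set side by side between genes, because TPM corrects for transcript length. In pod 15 DAF replicate 3 the deposited column summed to 436072 TPM, against 823001 to 999633 in the other 17 libraries. Pod 10 DAF c2 and grain 20 DAF replicate 3 correlated better with a library of another stage (r = 0.938 and r = 0.968 across genes) than with their own group (r = 0.929 and r = 0.958). Over the 19861 genes tested, the median log2 difference was 0.10 for pod at 20 against 10 DAF, -0.16 for pod at 15 against 10 DAF, -1.08 for grain at 20 against 10 DAF and -1.18 for grain against pod at 20 DAF. With median-ratio scaling those medians were -0.02, -0.02, -0.10 and -0.06. Log2 differences below are on the log2(TPM + 1) scale, which understates changes of low values, with the standard error (SE) of a limma fit. That SE pools the spread of all 6 groups. For genes near 0 in grain, as both genes of the pair were, the grain libraries add almost no spread. The SE of such genes therefore understates the spread between pod libraries.

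Phvul.010G023000, the DXR gene of the pair, was above 1 TPM in 4 libraries, all from pods. In grain it was listed at 0 in all 3 libraries at 10 DAF, at 0, 0.023 and 0 TPM at 15 DAF and at 0, 0.029 and 0.165 TPM at 20 DAF. In pods at 10 DAF it was listed at 0, 0 and 0.418 TPM in c1, c2 and c3. At 15 DAF the 3 pod libraries had 9.61, 0 and 0.319 TPM, so that 1 library was above 1 TPM. At 20 DAF they had 114, 26.9 and 26.5 TPM, all above every library of the other 5 groups. A value of 0 need not mean absence, since the depth is unknown. In each library 25 to 32 of 345 ribosomal protein genes were also listed at 0, and whether those copies were expressed was not tested.

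The level of this DXR gene in pods at 20 DAF was 55.7 ± 50.2 TPM (SD, n = 3). Without its highest library, replicate 1, the mean was 26.7 TPM, and the mean of the whole group was 2.08 times as large. Without pod 15 DAF replicate 1 the mean at 15 DAF went from 3.31 to 0.16 TPM. The fitted log2 difference between pods at 20 and 10 DAF was 5.31 ± 0.63 (SE), and between 20 and 15 DAF it was 4.21 ± 0.63. The value for 15 against 10 DAF was 1.10 ± 0.63, and it was 0.03 without pod 15 DAF replicate 1. Grain at 20 DAF differed from pod at 20 DAF by -5.39 ± 0.63. In whole tissue, fewer cells that express a gene and less RNA per cell cannot be told apart.

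Phvul.005G135000, the terpene synthase of the pair, was detected in all 18 libraries but above 1 TPM in pods alone. Its 9 grain values lay between 0.024 and 0.213 TPM. In pods at 10 DAF it had 33.9, 70.2 and 66.0 TPM in c1, c2 and c3, a mean of 56.7 ± 19.8 (SD, n = 3). At 15 DAF the pod libraries had 352, 197 and 86.4 TPM, a mean of 212 ± 133. By 20 DAF they had 937, 330 and 584 TPM, a mean of 617 ± 305. The pod libraries at 15 DAF all lay above those at 10 DAF, whereas those at 20 and 15 DAF overlapped. In its library, the gene ranked 88th, 422nd and 205th of all genes by TPM at 20 DAF in replicates 1, 2 and 3.

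The fitted log2 difference of the terpene synthase was 3.36 ± 0.43 (SE) for pods at 20 against 10 DAF, 1.73 ± 0.43 for 15 against 10 DAF and 1.63 ± 0.43 for 20 against 15 DAF. Grain lay below pod by a log2 difference of -5.57, -7.44 and -9.04 at 10, 15 and 20 DAF, each ± 0.43. The lowest pod value at 15 DAF came from the library whose column sum was low. With each column rescaled to the same sum, that value went from 86.4 to 198 TPM, close to the 220 TPM of replicate 2 on the same scale, and the log2 difference between 20 and 15 DAF became 1.23.

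**Figure D1:**
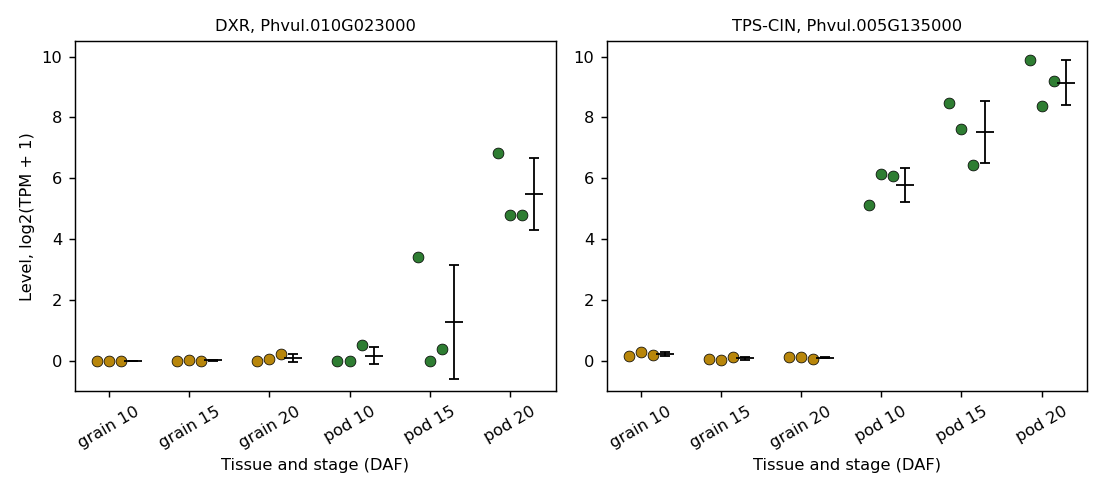
Levels of DXR (Phvul.010G023000, left) and TPS-CIN (Phvul.005G135000, right) in the 18 libraries, on a log2(TPM + 1) axis. Each point is 1 library (grain in ochre, pod in green) and the bars show the mean ± SD of the 3 log2 values. DXR was above 1 TPM in 4 libraries, 3 of them from pods at 20 DAF, while the terpene synthase was at 33.9 TPM or more in all 9 pod libraries.

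The order of the groups differed between the pair at the low end and matched at the high end. For DXR the order by mean was pod 20, pod 15, pod 10, grain 20, grain 15 and grain 10 DAF, and every neighbouring pair below the first overlapped between libraries. For the terpene synthase the order was pod 20, pod 15, pod 10, grain 10, grain 20 and grain 15 DAF, with overlap between the first and second and between the last pair. Pods at 20 DAF held 94.0% of the sum of the 6 group means of DXR and 69.7% of that of the terpene synthase. On the tissue specificity index tau, which runs from 0 for equal levels in all groups to 1 for a single group, DXR had 0.987 and the terpene synthase 0.913. Among 16308 genes with at least 5 TPM in a group mean, 99.4% and 94.3% had a lower tau. Counting itself, 11 genes were at least as high as DXR in pods at 20 DAF and no higher than it in grain, and for the terpene synthase the gene itself was the 1 such gene. These cutoffs are each gene's own levels, and such levels chose the pair. The counts and tau ranks therefore describe that choice and are no evidence that the pattern is rare. The terpene synthase exceeded DXR by 8.25, 12.3 and 22.0 times in TPM in the 3 pod libraries at 20 DAF, so the library with the most DXR also had the most terpene synthase but the smallest ratio.

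The table holds 1 other gene described as DXR, Phvul.003G200300, and its course was unlike that of the first. It was present in every library, at 54.9 ± 0.51 TPM (SD, n = 3) in grain at 10 DAF, 12.9 ± 1.70 at 15 DAF and 4.48 ± 2.14 at 20 DAF. In pods it had 17.9 ± 2.88, 25.7 ± 15.1 and 31.0 ± 4.92 TPM at the 3 stages. In grain it fell by 3.43 ± 0.37 on the log2 scale between 10 and 20 DAF (limma adjusted p = 6.93e-07, with no overlap between libraries). In pods the difference of 0.76 ± 0.37 between 20 and 10 DAF did not pass (adjusted p = 0.206). The change from 10 to 20 DAF differed between the tissues, grain minus pod, by -4.18 ± 0.52 (adjusted p = 1.62e-05).

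Of the TPM assigned to both DXR genes together, Phvul.010G023000 held 81.4%, 42.9% and 45.9% in the pod libraries at 20 DAF. At 15 DAF its share was 18.9%, 0% and 2.83%, at 10 DAF it was at most 2.08%, and in grain at most 2.39%. Both genes summed to 14.6 to 20.1 TPM in pods at 10 DAF and to 57.8, 62.7 and 140 TPM at 20 DAF. How reads shared by similar copies were assigned is not given in the sources used here, and similarity between the copies was not measured, so the split between them is uncertain to that extent.

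**Figure D2:**
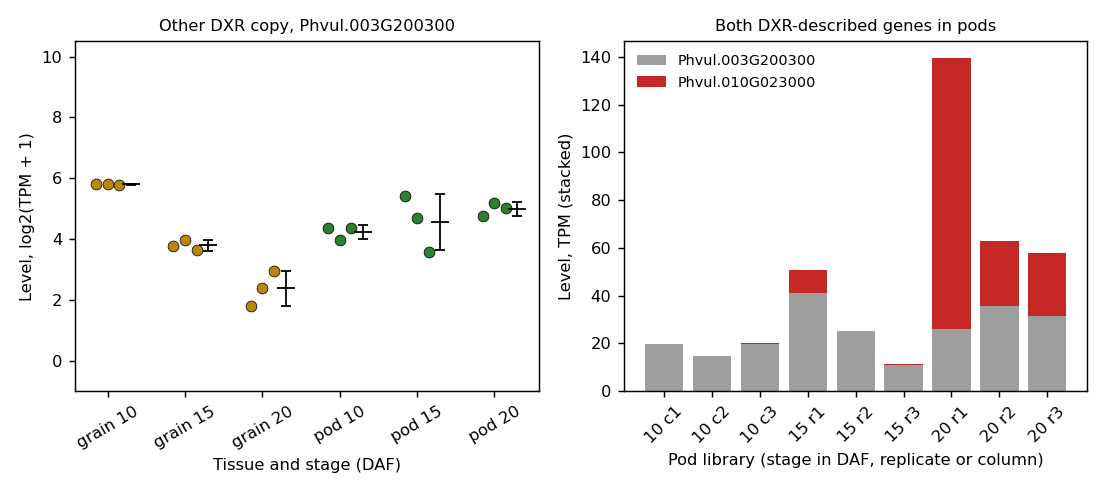
The other DXR gene, Phvul.003G200300, in all 18 libraries on a log2(TPM + 1) axis (left, 1 point per library, bars mean ± SD of the 3 log2 values), and both DXR genes stacked in TPM in each pod library (right). Phvul.010G023000 is visible at 15 DAF in replicate 1 and in all 3 libraries at 20 DAF, where it held 42.9% to 81.4% of the sum.

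In pods few other genes of the MEP pathway passed the test between the first and last stage. The list held 12 genes besides it, all tested, and 10 of them reached 5 TPM in a group. Between 10 and 20 DAF in pods 1 gene rose and 1 fell, where 5.38% of all genes tested rose and 6.72% fell, and the list median was 0.47 against 0.10 over all genes. Both belong to DXS, the first step of the pathway. Phvul.003G287800 rose from 1.45, 2.14 and 1.44 TPM to 5.46, 15.9 and 7.07 TPM, a log2 difference of 1.85 ± 0.38 (limma adjusted p = 0.0025). Phvul.003G099600, at 10 DAF the most abundant DXS gene of pods, went the other way, from 169, 171 and 199 TPM to 47.9, 20.9 and 47 TPM. Its log2 difference was -2.28 ± 0.41 (adjusted p = 0.000929). Neither gene's libraries overlapped between the stages.

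The steps around DXR had these values in pods, none of which passed the test. MCT, Phvul.003G090900, which adds the cytidyl group to the product of DXR, had 13.2 to 21.6 TPM at 10 DAF and 20.7 to 28.9 at 20 DAF (log2 difference 0.41 ± 0.30, limma adjusted p = 0.42). The kinase of the next step, Phvul.006G019500, had 11 to 12.2 and 9.53 to 31.0 TPM. MECPS, Phvul.002G159900, which closes the cyclic diphosphate, had 22.3 to 37.3 and 26.2 to 70.9 TPM. The last pair of steps is carried out by HDS and HDR, which release isopentenyl diphosphate and dimethylallyl diphosphate. HDS, Phvul.005G135800, had 48.6 to 80.4 TPM at 10 DAF and 113 to 135 TPM at 20 DAF, without overlap, yet the log2 difference of 0.91 ± 0.37 did not pass (adjusted p = 0.119). HDR, Phvul.011G047900, had 80.9 to 198 and 148 to 171 TPM. DXPS3, Phvul.009G095900, a further DXS type, had 15.7 to 19.6 and 14.8 to 29.8 TPM. At 20 DAF the DXR of the pair stood above MCT, the kinase and MECPS in replicates 1 and 3 and below each of them in replicate 2.

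In grain the same pathway stood lower at the later stages. Between 10 and 20 DAF 8 of the 12 genes fell and none rose, where 52.9% of all genes tested fell and 2.67% rose, and the list median was -1.64 against -1.08 over all genes. With median-ratio scaling, 4 of 12 fell and the list median was -0.49, where 3289 of 19566 genes fell and the median of all genes was -0.10. HDR fell by 3.37 ± 0.46 on the log2 scale (limma adjusted p = 8.93e-06), MCT fell by 2.41 ± 0.30 (adjusted p = 2.91e-06) and HDS fell by 2.18 ± 0.37 (adjusted p = 7.35e-05). The differences of MECPS (-1.0 ± 0.38, adjusted p = 0.0273) and the kinase Phvul.006G019500 (-1.13 ± 0.39, adjusted p = 0.0165) turned to 0.22 and 0.10 with median-ratio scaling.

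One DXS gene had its level mainly in grain. Phvul.006G159900 stood at 56.2 ± 13.2 TPM (SD, n = 3) in grain at 10 DAF and 11.9 ± 4.03 at 20 DAF, against 1.52 ± 1.06 and 0.463 ± 0.365 in pod. It was higher in grain at 10 DAF by a log2 of 4.55 ± 0.36 (limma adjusted p = 1.07e-08) and at 20 DAF by 3.13 ± 0.36 (adjusted p = 9.53e-07). At 10 DAF 4 of the 12 genes were higher in grain, this one, the other DXR, MCT and the kinase, and 3 were lower, all of DXS type (Phvul.003G099600, Phvul.003G148900 and DXPS3), against 17.8% and 16.8% of all genes. At 20 DAF 1 was higher and 9 lower, against 6.25% and 56.7%. The change from 10 to 20 DAF was lower in grain than in pod for 9 of 12 genes and higher for none, against 52.8% and 3.69% of all genes. With median-ratio scaling it was lower for 5 of the list and for 2496 of all 19566 genes.

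**Figure D3:**
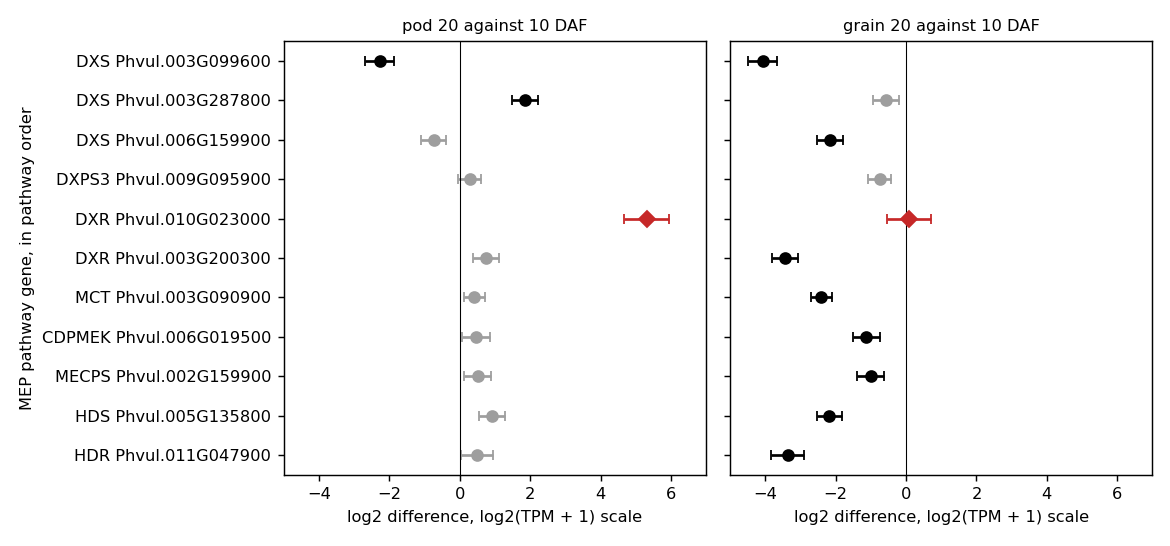
Log2 differences between 20 and 10 DAF in pod (left) and grain (right) for the 2 DXR genes and the other named genes of the MEP pathway, listed from first to last step, on the log2(TPM + 1) scale. Points are fitted differences with bars of ± 1 SE, black where the gene passed the test, grey where it did not and a red diamond for Phvul.010G023000, which was not tested. In pod its difference of 5.31 stands beside 1.85 and -2.28 for the DXS genes that passed.

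The terpene synthase of the pair belongs to a list of 46 genes, most of which were listed at 0 or at low levels. The list was drawn by description and also holds genes described only as terpenoid cyclases: Phvul.006G156500, Phvul.006G156600, Phvul.006G156900 and Phvul.010G165100. Phvul.006G156600 is numbered next to the baruol synthase Phvul.006G156700, which is counted in the triterpene list. Whether these cyclases make triterpenes was not tested, so the list need not hold terpene synthases alone. Of the other 45, 18 were listed at 0 in all 18 libraries, 15 passed the filter and 10 reached 5 TPM in a group. Described as TPS-CIN were 6 genes, and of these Phvul.005G135000 was the 1 that passed the filter. The highest value of any of the other 5 was 2.53 TPM, in a pod library, for Phvul.005G133300. Phvul.005G135000 accounted for 4.18% to 8.55% of the summed TPM of the list in pods at 10 DAF, and for 16.0% to 20.5% and 37.4% to 48.2% at 15 and 20 DAF. In each grain library its share was at most 0.298%.

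Among the other 15 tested genes of this list, 4 (26.7%) rose and 1 (6.67%) fell in pods between 10 and 20 DAF. Of all genes 5.38% and 6.72% did. The list median was 0.01 against 0.10 over all genes. The pair's gene is left out of the list count and median. Phvul.006G156500, described as a terpenoid cyclase, went from 0.942, 21.5 and 7.22 TPM to 59.2, 59.9 and 77.6 TPM, a log2 difference of 3.22 ± 0.57 (limma adjusted p = 0.000837). Phvul.005G135200, described as TPS02 and close in gene number to the terpene synthase of the pair, went from 9.26, 3.18 and 6.99 TPM to 21.7, 14.7 and 23.7 TPM. Its log2 difference was 1.56 ± 0.34 (adjusted p = 0.00411). Phvul.005G135100, also described as TPS02 and numbered between that gene and the pair's, had 0.201 to 0.702 TPM at 10 DAF and 1.04 to 8.85 at 20 DAF (1.61 ± 0.39, adjusted p = 0.00937, and 0.0517 without pod 20 DAF replicate 1). The differences of Phvul.006G156500, Phvul.005G135200 and Phvul.005G135100 were lost when only the pod groups compared were fitted, with adjusted p = 0.0645, 0.0727 and 0.143. Phvul.011G143500, described as TPS21, whose Arabidopsis namesake makes caryophyllene, had 0.428 to 3.98 TPM at 10 DAF and 2.90 to 9.67 at 20 DAF. Its libraries overlapped, and its difference of 1.51 ± 0.40 (adjusted p = 0.0167) was lost without pod 10 DAF c1 (adjusted p = 0.0983), without c2 (0.0663) or without pod 20 DAF replicate 3 (0.0854), and when only the groups compared were fitted (0.189).

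The terpene synthase with the highest level in pods at 10 DAF was Phvul.006G195700, described as TPS14, a linalool synthase in Arabidopsis. It had 676, 622 and 645 TPM at 10 DAF, 1148, 824 and 362 at 15 DAF and 1138, 225 and 801 at 20 DAF. Its log2 difference between 20 and 10 DAF was -0.13 ± 0.59 (limma adjusted p = 0.936). In pod 20 DAF replicate 2 the terpene synthase of the pair, at 330 TPM, stood above it, and in the other pod libraries it stood below. Phvul.001G152100, described as the copalyl diphosphate synthase of gibberellin synthesis, fell from 8.33, 32 and 24.5 TPM to 0.287, 2.90 and 4.94 TPM (log2 difference -2.68 ± 0.50, adjusted p = 0.00134, and 0.0709 when only the pod groups compared were fitted). Others did not pass between 10 and 20 DAF. Phvul.005G133101 had 0.342 to 3.77 and 2.01 to 7.03 TPM, and Phvul.006G156600 had 0.686 to 8.84 and 4.85 to 9.70 TPM. Phvul.006G156900 had 3.49 to 7.63 and 2.31 to 5.35 TPM, and Phvul.011G156400 had 16.5 to 34.4 and 24.6 to 27.3 TPM.

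Between the tissues, 8 of the 15 were lower and 3 higher in grain at 10 DAF (Phvul.001G152100, Phvul.005G048500 and Phvul.006G156200), against 16.8% and 17.8% of all genes. At 20 DAF 9 (60%) were lower and none higher, near the 56.7% and 6.25% of all genes. With median-ratio scaling the counts at 20 DAF were 8 lower and 1 higher in grain, where 3955 and 2812 of 19566 genes were. The list was thus near all genes only without that scaling. Phvul.006G156500 was lower in grain at 20 DAF by a log2 of -5.94 ± 0.57 (limma adjusted p = 1.1e-07), and Phvul.006G195700 by -4.71 ± 0.59 (adjusted p = 2.55e-06). An exception was Phvul.010G165100, described as a terpenoid cyclase, which rose in grain from 0.574 ± 0.344 TPM at 10 DAF to 16.4 ± 11.6 TPM at 20 DAF (log2 difference 3.29 ± 0.49, adjusted p = 2.04e-05) and stood at 12.2 ± 5.64 TPM in pods at 20 DAF. Of the list, this gene rose and 4 (26.7%) fell in grain between these stages (Phvul.001G152100, Phvul.005G048500, Phvul.006G156200 and Phvul.006G195600). That is a smaller share falling than the 52.9% of all genes, of which 2.67% rose. With median-ratio scaling 1 rose and 2 fell, where 1677 and 3289 of 19566 genes did.

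**Figure D4:**
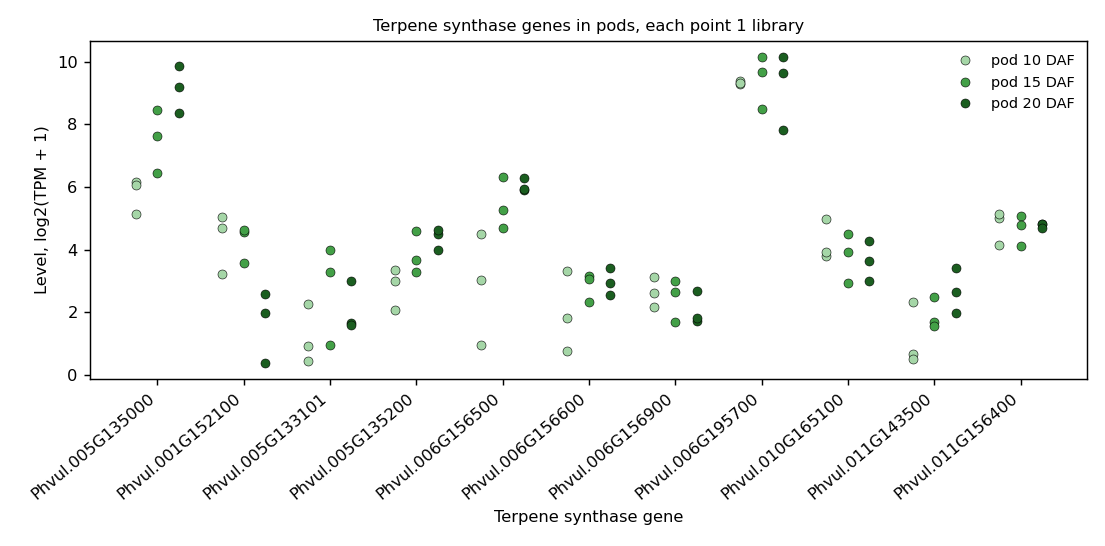
Levels of the terpene synthase of the pair (Phvul.005G135000, first) in the 9 pod libraries on a log2(TPM + 1) axis. Beside it are the 10 other genes of the terpene synthase list, terpenoid cyclases included, that reached 5 TPM in a group. Each point is 1 library, shaded from light at 10 DAF to dark at 20 DAF. Phvul.005G135000 and Phvul.006G195700 are the genes with the highest levels, and the libraries of the first at 20 DAF (330 to 937 TPM) all lie above those at 10 DAF (33.9 to 70.2 TPM).

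The list of isopentenyl isomerase and the prenyl diphosphate synthases, which build the substrates of terpene synthases, held 9 genes. None passed in limma in pods between 20 and 10 DAF, and 2 had an unadjusted p under 0.05. Over all genes tested 5.38% rose and 6.72% fell, so none of 9 says little about this list. The isomerase Phvul.008G054025 had 104 to 180 TPM at 10 DAF and 150 to 180 at 20 DAF, and the geranylgeranyl diphosphate synthase Phvul.002G026400 had 7.21 to 22.2 and 13.9 to 17.2 TPM. In grain, Phvul.002G026400 fell from 250 ± 92.5 TPM at 10 DAF to 6.44 ± 4.74 at 20 DAF (log2 difference -5.21 ± 0.47, adjusted p = 8.25e-08).

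In carotenoid synthesis 3 of 19 genes rose and 2 fell in pods between 10 and 20 DAF. Over all genes tested 5.38% rose and 6.72% fell. BCH1, Phvul.007G074200, a hydroxylase that turns beta-carotene into xanthophylls, rose from 42.2, 86.8 and 58.7 TPM to 789, 329 and 403 TPM, by a log2 of 2.95 ± 0.49 (limma adjusted p = 0.000495). Its highest library at 20 DAF was replicate 1, as for both genes of the pair. Phytoene synthase, Phvul.006G024100, the entry step into carotenoids, fell from 5.07, 6.58 and 11.1 TPM to 1.26, 0.634 and 0.697 TPM (log2 difference -2.16 ± 0.35, adjusted p = 0.000375). Lycopene cyclase LUT2, Phvul.009G230300, had 28.5 to 60.7 TPM at 10 DAF and 7.61 to 22.0 TPM at 20 DAF (-1.38 ± 0.41, adjusted p = 0.0321), and its call was lost without pod 10 DAF c1 (adjusted p = 0.0502), c3 (0.163), pod 20 DAF replicate 1 (0.0658) or replicate 2 (0.15). The other 2 genes that rose were the zeta-carotene isomerase Phvul.001G263600 (1.09 ± 0.34, adjusted p = 0.0415) and a zeaxanthin epoxidase, Phvul.002G018700 (1.29 ± 0.39, adjusted p = 0.0351), and both were lost without pod 10 DAF c1 (0.104 and 0.0994). The first was also lost without c3, pod 20 DAF replicate 1 or replicate 3, and the second without c2 or pod 20 DAF replicate 2. LUT2 (0.134) and both of these (0.0794 and 0.173) did not pass when only the groups compared were fitted.

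Of carotenoid cleavage and abscisic acid synthesis, 2 of 6 tested genes (33.3%) rose in pods and none fell, against 5.38% and 6.72% of all genes. Phvul.011G097200, described as ABA2, an enzyme of abscisic acid synthesis, went from 10.3 to 13.8 TPM at 10 DAF to 22.1 to 68.6 at 20 DAF (log2 difference 1.71 ± 0.44, limma adjusted p = 0.0142). It was lost without pod 10 DAF c1 (0.0634), pod 20 DAF replicate 1 (0.0535) or replicate 3 (0.0703), with a pseudocount of 0.1 (0.0858) and when only the groups compared were fitted (0.0634). The other gene that rose was the abscisic aldehyde oxidase Phvul.008G210000 (1.54 ± 0.31, adjusted p = 0.00241), which did not pass in the fit of only the groups compared (0.05). Carotenoid cleavage dioxygenase CCD4, Phvul.002G120600, had 269 to 701 and 255 to 1106 TPM and did not pass (adjusted p = 0.514). Of the 10 tested genes of the gibberellin list 2 (20%) rose and none fell, beside the same shares of all genes. The 2 that rose were described as GA2OX1, an enzyme that inactivates gibberellins. The copalyl diphosphate synthase Phvul.001G152100, which fell, was counted in the terpene synthase list and not in this list. Phvul.005G061000 went from 0.813, 1.64 and 8.57 TPM to 41.2, 17.5 and 40.8 TPM (3.16 ± 0.70, adjusted p = 0.00481). Phvul.005G061200 went from 6.26, 24.1 and 36.0 TPM to 151, 51.4 and 145 TPM (2.48 ± 0.59, adjusted p = 0.00798, 0.0652 without pod 10 DAF c1 and 0.0827 when only the groups compared were fitted).

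The phytol, tocopherol and quinone list had 3 genes (25%) up and 1 (8.33%) down of 12 tested in pods, against 5.38% and 6.72% of all genes. Phvul.011G017200, described as VTE4, a methyltransferase that completes alpha-tocopherol, had 9.09, 19.3 and 45 TPM at 10 DAF, 478, 41.0 and 40.6 at 15 DAF and 2131, 373 and 401 at 20 DAF. Replicate 1 was highest at both later stages, as it was for the DXR of the pair. Its log2 difference between 20 and 10 DAF was 5.02 ± 0.82 (limma adjusted p = 0.000415). It also rose in grain, from 5.39 ± 2.75 to 132 ± 38.7 TPM (4.41 ± 0.82, adjusted p = 0.00018). A second gene described as VTE4, Phvul.011G017100, passed with 2.25 ± 0.73 (adjusted p = 0.0499) and was lost without pod 20 DAF replicate 1 (0.269) or without any library of pods at 10 DAF, and when only the groups compared were fitted (0.234). The methyltransferase VTE3, Phvul.007G279000, rose by 1.96 ± 0.36 (adjusted p = 0.000995), and a geranylgeranyl reductase, Phvul.008G268100, fell by 1.19 ± 0.26 (adjusted p = 0.00435).

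In the mevalonate pathway of the cytosol 1 of 11 genes (9.09%) rose and 3 (27.3%) fell in pods between these stages, against 5.38% and 6.72% of all genes. Several genes were described as HMGR1, the regulated step of that pathway. Phvul.L004337 fell from 24.8, 20.9 and 13.9 TPM to 0.65, 0.452 and 1.54 TPM (log2 difference -3.48 ± 0.36, limma adjusted p = 5.43e-06). Phvul.002G118900 had 98.3 to 194 and 103 to 160 TPM and did not pass (adjusted p = 0.841). Phvul.003G271800 passed with 1.61 ± 0.52 (adjusted p = 0.0483) but was at 7.80, 37.4 and 7.38 TPM at 20 DAF, and it was lost without pod 20 DAF replicate 2 (0.244), pod 10 DAF c1 (0.118) or c3 (0.174). The other 2 that fell, Phvul.004G123000 for HMG-CoA synthase (-1.25 ± 0.31, adjusted p = 0.0112) and the HMGR1 gene Phvul.008G208900 (-1.04 ± 0.28, adjusted p = 0.0201), were lost without pod 10 DAF c1 (0.0942 and 0.144), and the second also without pod 20 DAF replicate 1 (0.105). Both of these (0.0843 and 0.0906) and Phvul.003G271800 (0.193) did not pass when only the groups compared were fitted.

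In squalene, triterpene and sterol synthesis 5 of 22 genes (22.7%) fell in pods between 10 and 20 DAF and none rose, against 6.72% and 5.38% of all genes. The cycloartenol synthase Phvul.004G178500 fell by 2.33 ± 0.50 (limma adjusted p = 0.00377) and the baruol synthase Phvul.006G156700 fell by 2.03 ± 0.38 (adjusted p = 0.00129). The sterol desaturase gene Phvul.004G067300 (-1.42 ± 0.33, adjusted p = 0.00622), squalene synthase Phvul.003G243600 (-1.39 ± 0.36, adjusted p = 0.0145) and the sterol oxidase Phvul.002G074300 (-1.35 ± 0.36, adjusted p = 0.0181) made up the rest. When only the groups compared were fitted, Phvul.004G178500 (0.105), Phvul.006G156700 (0.0679), Phvul.004G067300 (0.0538) and Phvul.003G243600 (0.0512) did not pass. Without pod 10 DAF c1, Phvul.003G243600 (0.0718) and Phvul.002G074300 (0.0518) did not pass. Phvul.003G243600 was also lost without c3 (0.0589) or pod 20 DAF replicate 1 (0.0564), and Phvul.002G074300 without c2 (0.0508).

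Over all isoprenoid lists without the pair, 116 of 186 genes were tested. In pods 16 rose and 13 fell between 10 and 20 DAF, 13.8% and 11.2% of those tested, against 5.38% and 6.72% of all genes. Without pod 10 DAF c1 the counts were 9 and 8, and when only the pod groups compared were fitted they were 5 and 5. Between 10 and 15 DAF 4 rose, namely the DXS gene Phvul.003G287800, Phvul.006G156500 and both GA2OX1 genes, and 10 fell, where 1.51% and 5.25% of all genes did. That split depended on the scaling, since rescaling each column to the same sum gave 17 up and 4 down and median-ratio scaling 11 and 8. Over all genes those scalings gave 1088 up and 633 down of 19978, and 588 and 829 of 19566. Without pod 10 DAF c1 the isoprenoid counts were 2 and 3, and without pod 15 DAF replicate 2 they were 2 and 6. Between 15 and 20 DAF BCH1 rose and Phvul.001G152100 fell, against 1.11% and 0.519% of all genes. With columns of equal sum 1 rose and 5 fell, where 172 and 462 of 19978 genes did.

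In grain 3 isoprenoid genes rose (Phvul.011G017200, Phvul.010G165100 and the cycloartenol synthase Phvul.002G302200) and 73 (62.9%) fell between 10 and 20 DAF, against 2.67% and 52.9% of all genes, and with median-ratio scaling 6 rose and 34 fell. Between 10 and 15 DAF Phvul.010G165100 and Phvul.002G302200 rose and 54 fell, against 1.91% and 34.4% of all genes, and median-ratio scaling gave 4 and 20. Between 15 and 20 DAF 14 fell and none rose in limma, against 5.05% and 0.896% of all genes, and 2 had an unadjusted p under 0.05 in the upward direction. Grain was higher than pod in 14 and lower in 52 at 15 DAF, against 8.93% and 30.1%, or in 20 and 40 with median-ratio scaling. At 20 DAF it was higher in 8 and lower in 69 (6.9% and 59.5%), near the 6.25% and 56.7% of all genes, or in 18 and 42 with median-ratio scaling. The change from 10 to 20 DAF was higher in grain for 4 (Phvul.010G165100, Phvul.002G302200, Phvul.004G178500 and Phvul.006G156700) and lower for 72 (3.45% and 62.1%), against 3.69% and 52.8% of all genes, or for 8 and 36 with that scaling. For the pair the same difference, grain minus pod, was -5.22 ± 0.89 for Phvul.010G023000 and -3.47 ± 0.60 for Phvul.005G135000. Of all 19566 genes tested with median-ratio scaling, 1677 rose and 3289 fell in grain between 10 and 20 DAF. Between 10 and 15 DAF 1116 rose and 2003 fell. Grain was higher than pod in 2896 and lower in 3675 at 15 DAF, and in 2812 and 3955 at 20 DAF. The change was higher in grain for 1794 and lower for 2496.

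The genes with the most similar pattern were taken by Pearson's r of log2(TPM + 1) over the 18 libraries, among 16307 genes with at least 5 TPM in a group mean. These r are descriptions, since the libraries share tissue and stage. Closest to DXR was Phvul.002G152400, described as the subtilase ARA12, a serine protease, with r = 0.968. At 20 DAF in pods it had 30.9, 51.0 and 15.2 TPM. Then came Phvul.003G177700, which has no description (0.966), the protein kinase Phvul.008G288500 (0.951), the transporter CLT3, Phvul.008G201700 (0.938), and the cytochrome P450 Phvul.002G226700, described as CYP71A24 (0.938). Phvul.002G152400 and Phvul.008G288500 shared with DXR a raised value in pod 15 DAF replicate 1, at 14.6 and 3.06 TPM against at most 0.565 TPM in the other pod libraries of that stage. Over the same libraries, 22 genes had an r above 0.9 with DXR.

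The pattern of the terpene synthase was far more common, with 1322 genes above r = 0.9. Its closest genes were the transporter of the major facilitator family Phvul.003G193400 (r = 0.994), the homeodomain gene BLH1, Phvul.005G119300 (0.991), Phvul.002G195800 and Phvul.005G061801, both undescribed (0.990 each), and the auxin efflux carrier Phvul.002G119300 (0.990). Phvul.003G193400 had 8.68 ± 2.56 TPM in pods at 10 DAF and 25 ± 12.2 at 20 DAF, beside at most 0.0347 TPM in any grain mean. In the 9 pod libraries alone, none of these 5 stayed among the closest 5, whereas 1 of 5 did for DXR. The pair correlated with each other at r = 0.729.

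Marker lists were read beside the pair in pods. The 53 genes of the senescence list, 26 of which passed the filter, summed in pods at 10, 15 and 20 DAF to 567 to 1224, 577 to 1881 and 3264 to 3951 TPM, without overlap between 20 DAF and the earlier stages. At 20 DAF 74% of the sum came from Phvul.009G227100, the aleurain-like protease SAG2, which rose from a mean of 357 to 2590 TPM (log2 difference 2.85 ± 0.60, limma adjusted p = 0.00341). Of the 26 tested, 4 rose (this gene, Phvul.009G159300, Phvul.010G155900 and Phvul.L001659) and 2 fell (Phvul.002G308900 and Phvul.004G014300), 15.4% and 7.69%, against 5.38% and 6.72% of all genes, and the list median was 0.19 against 0.10. The 37 light-harvesting and RuBisCO small subunit genes summed to 14780 to 39570 TPM in pods at 10 DAF and 4070 to 12550 TPM at 20 DAF, and 22 of 37, 59.5%, fell. The sums of defence and chitinase genes overlapped between pods at 10 and 20 DAF, at 2548 to 5508 and 1839 to 8415 TPM. Of the 19 tested, 4 rose and 1 fell, 21.1% and 5.26%, against 5.38% and 6.72% of all genes. Phvul.009G116500 went from a mean of 31.2 to 2220 TPM, and Phvul.008G018100 from 3280 to 855 TPM. The 54 genes for jasmonate synthesis also overlapped in sum, at 1082 to 2233 and 1080 to 1630 TPM. Of the 36 tested, 8 rose and 5 fell, 22.2% and 13.9%, beside the same shares of all genes. The part of senescence, greening, defence or jasmonate in the levels of the pair was not tested.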

How the data were processed

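RNA sequencing of 18 bean libraries (6 groups of tissue and stage, 3 each) was deposited by the authors as TPM, in 1 table of 27420 genes with Arabidopsis-style descriptions, 4644 of them missing. The aligner, the counting tool and the build are not named by any source used here. Because TPM does not carry the depth, counting intervals could not be computed. The pod 10 DAF titles are numbered differently from the columns, which were therefore assigned to the group only and called c1, c2 and c3.

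The deposited values were moved to log2(TPM + 1), filtered at 1 TPM in 3 libraries (19861 genes) and fitted with limma 3.58.1 in R 4.3.3: 6 group means, intensity trend, 12 residual degrees of freedom, 2-sided tests, Benjamini-Hochberg adjustment over all genes. Genes passed with a log2 difference of 1 or more and adjusted p below 0.05. Tables and plots used Python 3.11.15. The steps were tested on simulated data.

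The pair, the lists and the tests were chosen with earlier results of these data known. Lists were search patterns on descriptions. Genes of another kind, such as trehalose phosphate synthases, were left out after reading descriptions (for the MEP and terpene synthase lists, with levels in view). The naming rule took every MEP and terpene synthase gene that passed the filter and reached 5 TPM in a group, from the other lists the 2 most abundant genes and the largest passing difference each way, and the 5 genes closest to each of the pair. Not every gene that it took from the other lists is discussed. Further genes are named where they make up a small count, and were chosen after their values were seen.

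Alternatives were a pseudocount of 0.1, no filter or one at 5 TPM, columns rescaled to the same sum, median-ratio scaling, the 50 most abundant genes left out, only the groups compared, no trend, no minimum difference, a replicate block, each library left out and, added after the data were seen, lists with every matched gene.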

Additional observations from a re-analysis of the deposited data

Results flagged for a closer look

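Of the 48 genes that the naming rule took from the isoprenoid lists, 31 changed differently between the tissues from 10 to 20 DAF, by the interaction in the limma fit. That is 64.6%, beside 52.8% of all genes lower and 3.69% higher in grain, and the rule took some of the genes for their passing differences, so the count says little about the lists. Values below are the change in grain minus the change in pod on the log2 scale. The median of this difference over all genes was -1.25, so grain also changed downwards against pod in general, and with median-ratio scaling that median was -0.13. None of the groups had enough libraries for a test of single libraries.

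In the MEP pathway the difference was -4.18 for the other DXR gene Phvul.003G200300, -3.85 for HDR Phvul.011G047900, -3.09 for HDS Phvul.005G135800 and -2.82 for MCT Phvul.003G090900. It was -2.42, -1.79 and -1.42 for the DXS genes Phvul.003G287800, Phvul.003G099600 and Phvul.006G159900. It was -1.59 for the kinase Phvul.006G019500 and -1.51 for MECPS Phvul.002G159900. In the terpene synthase list it was -3.12 for Phvul.006G156500, -2.48 for Phvul.001G152100, -1.53 for Phvul.005G135200 and -1.51 for Phvul.011G143500. Phvul.010G165100 went the other way, with 3.91.

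For the isomerase Phvul.008G054025 the difference was -1.41 (0.038 with median-ratio scaling), for the geranylgeranyl diphosphate synthase Phvul.002G026400 it was -5.58 and for the solanesyl diphosphate synthase Phvul.005G064200 it was -2.41. In the sterol list it was -3.43 for Phvul.007G058100 and -2.47 for Phvul.005G023700, and 2.30 for the cycloartenol synthase Phvul.004G178500. In the carotenoid and abscisic acid lists it was -4.44 for BCH1 Phvul.007G074200, -2.26 for Phvul.003G243800, -2.26 for Phvul.009G230300, -2.38 for Phvul.011G211200, -1.93 for Phvul.011G097200 and -2.53 for Phvul.005G031500. Gibberellin genes had -6.56 (Phvul.005G061000), -5.51 (Phvul.006G123500) and -4.09 (Phvul.005G061200). Tocopherol genes had -3.91 (Phvul.007G144700) and -1.28 (Phvul.007G175500, where median-ratio scaling gave 0.17).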

How the results depend on the processing

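The pair kept its direction in every alternative run for it, and the cause of the differences listed here was not tested. With a pseudocount of 0.1 TPM the log2 differences of DXR became 7.97 (pod 20 against 10 DAF), 5.87 (pod 20 against 15 DAF) and -8.17 (grain against pod at 20 DAF), and those of the terpene synthase -7.74, -10.23 and -11.67 (grain against pod at 10, 15 and 20 DAF). Counts of isoprenoid genes that passed, both directions together, were 29 for pod 20 against 10 DAF, 14 for pod 15 against 10 DAF and 2 for pod 20 against 15 DAF. When only the groups compared were fitted they were 10, 5 and 0, where for the last 10 genes had an unadjusted p under 0.05. For pod 20 against 15 DAF the count was 1 with no filter, 6 with columns of equal sum, 5 with median-ratio scaling and 4 without the 50 most abundant genes. Leaving out 1 library gave 17 to 34, 5 to 19 and 0 (without pod 15 DAF replicate 2, with 15 genes at an unadjusted p under 0.05) to 6 for those comparisons and 4 to 16 for grain 20 against 15 DAF. In grain, median-ratio scaling gave 40 (20 against 10 DAF) and 24 (15 against 10 DAF), leaving out the 50 most abundant genes 46 and 25, and equal sums 25 (20 against 15 DAF). For the difference between tissues in the change, median-ratio scaling gave 44.

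The labels give the replicate numbers no meaning, and pairing was not assumed, since not every same-numbered pair correlated above 0.1 in its deviations. Of 30 such pairs 9 did, against 7 of 60 other pairs, and 10 of 15 libraries had their best partner at the same number, a hint of pairing from the data, not the design. A replicate block, fitted without the pods at 10 DAF, which carry no number, changed the count for pod 20 against 15 DAF to 4 and no other count by over 1.5 times. Of the 5 genes closest to DXR, 3 were kept with median-ratio scaling, 1 with Spearman's rho and 1 in the 9 pod libraries alone. For the terpene synthase 1 was kept with a pseudocount of 0.1, 3 with equal sums, 2 with median-ratio scaling, 1 with Spearman's rho, 0 in pods alone and 3 without the 50 most abundant genes. Signs that turned with median-ratio scaling were those of Phvul.002G159900 (0.22, and 0.066 without the 50 most abundant genes), Phvul.006G019500 (0.10) and Phvul.008G054025 (0.080) in grain 20 against 10 DAF, of Phvul.011G156400 (0.17) and Phvul.009G020000 (1.17) in grain against pod at 20 DAF, and of Phvul.008G054025 (0.038) and Phvul.007G175500 (0.17) and Phvul.004G067300 (1.27, and 1.02 without the 50 most abundant genes) in the difference between tissues. With a pseudocount of 0.1 that of Phvul.002G074300 turned to 0.55. Depth is unknown, so the precision of values near 0 cannot be given.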
